A study of Homo sapiens with 9 samples.

Results

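The 8 p53 pathway genes described here were MDM2, MDM4, CDKN1A, GADD45A, GADD45B, BBC3, SESN1 and TP53INP1. They were chosen by name, all 8 were found, and all 8 passed the filter on low counts, among 16181 genes tested. The 8 genes had 79 annotated transcripts in the files, of which 26 passed the same filter and 25 were at 0 in every sample. RNA was sequenced from nuclear and cytoplasmic fractions of human HEK293 cells, an embryonic kidney line that the methods of the study call 293 T. The cells were transfected with control siRNA or with siRNAs against both WTAP and KIAA1429 (Virilizer, gene VIRMA), subunits of the complex that writes N6-methyladenosine (m6A) on mRNA. The groups were control nucleus (3 samples), WTAP/KIAA1429 RNAi nucleus (3 samples), control cytoplasm (1 sample, replicate 2) and WTAP/KIAA1429 RNAi cytoplasm (2 samples, replicates 1 and 2). Nothing in the labels says that replicates came from separate cultures, so p-values measure the spread between these samples, which may be technical. The study asked whether losing the m6A complex alters the export of mRNA from the nucleus, and each gene was therefore compared between siRNAs within each fraction, and then as a nuclear/cytoplasmic ratio.

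p53 is a transcription factor that is held at a low level by the ubiquitin ligase MDM2 and its partner MDM4, and that is released from them after DNA damage and other stress. MDM2 is also a p53 target, which closes a negative feedback loop. Among the other pathway genes described here, CDKN1A encodes the cyclin-dependent kinase inhibitor p21, GADD45A and GADD45B encode stress sensors, and BBC3 encodes the pro-apoptotic protein PUMA. SESN1 encodes the mTORC1 inhibitor sestrin 1, and TP53INP1 encodes a p53 cofactor that also acts in autophagy. In this cell line p53 is bound by adenovirus E1B protein, and in 293 T cells also by the SV40 large T antigen, so the line is a limited model of the p53 response. MDM2 and MDM4 are spliced in several ways. MDM4 mRNA that skips exon 6 encodes the short, unstable form MDM4-S, and MDM2 mRNA can lose the internal exons that encode the p53-binding and central domains.

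The exon junctions that separate these MDM4 and MDM2 transcripts are shown first, because the isoform results depend on them. They were read from GENCODE transcripts on GRCh37, plus strand, 5′ to 3′, with 20 bases of each flanking exon. MDM4 exon 6 lies at chr1:204506558-204506625 and is 68 nt long, and its bases are in capitals.
MDM4 with exon 6: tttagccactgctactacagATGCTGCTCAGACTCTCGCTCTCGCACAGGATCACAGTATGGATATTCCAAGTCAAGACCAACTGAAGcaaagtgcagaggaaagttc
MDM4 without exon 6: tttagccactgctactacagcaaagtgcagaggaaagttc
In MDM2, exon 3 (chr12:69207334-69207408) is joined either to exon 4 or directly to the last exon, and capitals mark the exon that follows exon 3.
MDM2 exon 3 to exon 4: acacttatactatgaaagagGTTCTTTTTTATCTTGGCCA
MDM2 exon 3 to last exon: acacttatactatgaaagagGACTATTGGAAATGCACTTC

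Sequencing totals were 11627403 to 19036141 estimated counts per sample. Levels are given as CPM (counts scaled to a common library size) of matched counts after TMM scaling, on which 3 counts correspond to 0.19 to 0.303 CPM, and differences are log2 fold changes with their standard errors (SE) and Benjamini-Hochberg FDR from edgeR's quasi-likelihood test across all genes. A gene was called changed when its log2 fold change was beyond 0.5 in either direction with an FDR under 0.1. Both siRNA targets were lower after RNAi. WTAP was at 24.1, 27.6 and 23.0 CPM in control nuclei and 12.2, 14.3 and 15.6 CPM in RNAi nuclei, and at 37.5 CPM in control against 10.8 and 11.9 CPM in RNAi cytoplasm. VIRMA was at 13.2 to 19.8 CPM in control nuclei and 5.56 to 9.18 CPM in RNAi nuclei, and at 17.4 CPM in control against 4.21 and 4.05 CPM in RNAi cytoplasm. Both targets were called in both fractions (edgeR FDR 0.01685 and 0.00079 for WTAP, 0.0314 and 0.002683 for VIRMA), although 6 alternatives lost the nuclear VIRMA call and 2 lost the nuclear WTAP call. The HEK293 transcripts NEFM, INA, PAX2 and LIN28B were above the 3-count floor in every sample. Keratinocyte markers KRT5 and KRT14 were at 0, liver markers summed to at most 0.6259 CPM and leukocyte PTPRC and CD3E stood at no more than 0.22 CPM each. Of 4 fibroblast markers only COL1A1 was above the floor in every sample, and their sum was 57.01 to 91.91 CPM. RNAs retained in nuclei, such as MALAT1 and NEAT1, summed to 365.7 to 504.2 CPM in control nuclei, 532.8 to 545.6 CPM in RNAi nuclei and 63.74 to 94.19 CPM in cytoplasm, but mitochondrial mRNAs were as abundant in the nuclear samples (125400 to 243600 CPM) as in the cytoplasmic ones (97570 to 187700 CPM).

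In the nucleus, none of the 8 genes changed after WTAP/KIAA1429 RNAi by the edgeR test, where 4.89% of all genes were called. At an unadjusted p under 0.05 there was 1 gene, GADD45B, and DESeq2 called 0. In the cytoplasm 1 gene was called, MDM2, which was lower, where 24.6% of all genes were called in either direction and 14.2% were called lower. For the nuclear/cytoplasmic ratio, none of the 8 was called by edgeR and 1 by DESeq2 (MDM2), where edgeR called 18.2% of all genes, and 2 genes (MDM2 and GADD45B) had an unadjusted edgeR p under 0.05. The counts of members called were thus not above those of all genes. The median log2 fold change of the 8 genes was -0.01 in the nucleus and -0.01 in the cytoplasm, beside 0.01 for all genes in the cytoplasm.

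**Figure D1:**
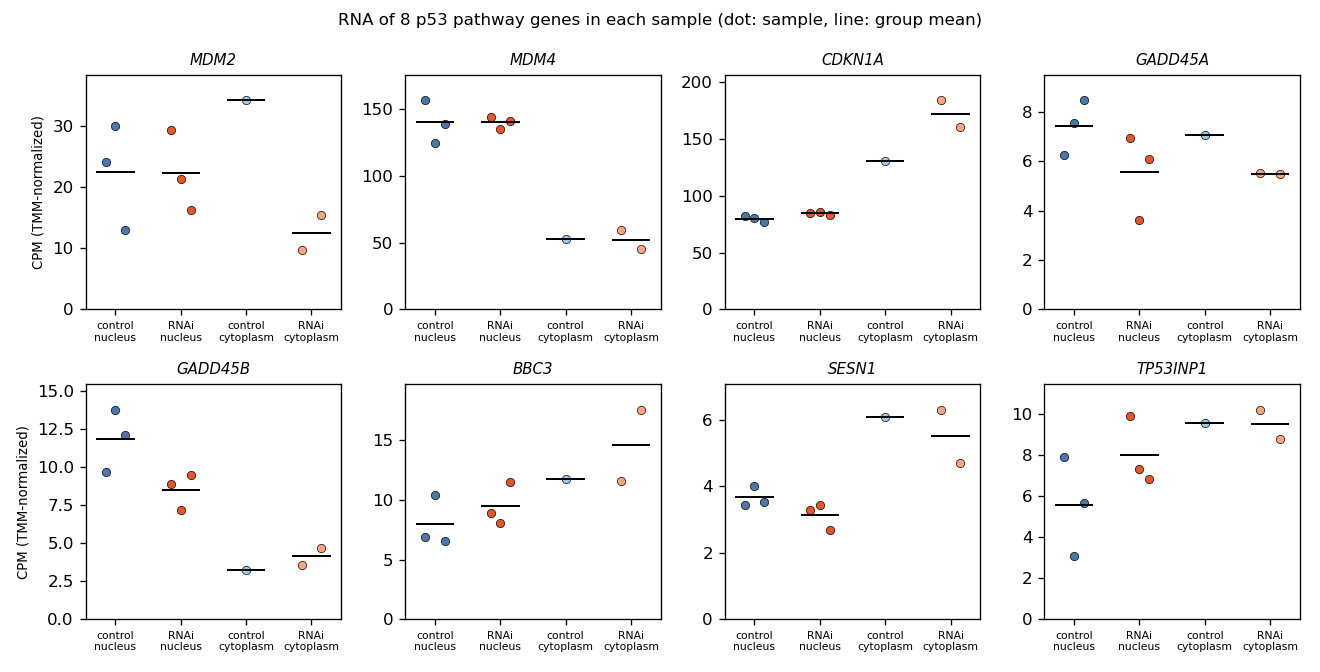
Level of each of the 8 genes in every sample, in TMM-scaled CPM (y axis, from 0, a separate scale for each gene), by group (x axis). Dots are samples and lines are group means. MDM2 was at 34.3 CPM in the control cytoplasm and at 9.74 and 15.4 CPM in the RNAi cytoplasm, whereas MDM4 was higher in every nuclear sample than in any cytoplasmic sample.

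MDM2, the ubiquitin ligase for p53 (chromosome 12, 69201957 to 69239324), was at 34.3 CPM in the control cytoplasm and at 9.74 and 15.4 CPM in the RNAi cytoplasm. Both RNAi samples were thus below the single control. The log2 fold change was -1.46 (SE 0.44, edgeR FDR 0.03924), to 36.25% of the control level. The control nuclei held 24.1, 30.1 and 13.1 CPM and the RNAi nuclei 29.4, 21.3 and 16.3 CPM. The nuclear ranges overlapped in CPM, with a log2 fold change of -0.01 (SE 0.3, edgeR FDR 0.9853). Per transcript length they did not overlap, at 25.8, 22.5 and 25.1 TPM in control and 31.5, 31.1 and 29.6 TPM in RNAi nuclei. The log2 fold change with a length offset was 0.26 (edgeR FDR 0.4345) and with limma on log2(TPM + 1) 0.32 (FDR 0.3096), neither of which was called. The nuclear/cytoplasmic ratio of MDM2 was 2.73-fold higher after RNAi, a log2 difference of 1.45 (SE 0.53, edgeR FDR 0.1044), which did not pass the FDR threshold. In such bulk fractions, RNA in fewer cells and less RNA per cell cannot be told apart. The ratio difference passed in 10 alternatives, the replicate block among them, and did not in 6, with a log2 difference between 1.14 and 1.95. The cytoplasmic comparison had 1 control sample, whose spread was taken from the other groups. Without replicate 1 of the RNAi cytoplasm the log2 fold change was -1.15 (edgeR FDR 0.1573) and the call was lost. The RNAs retained in nuclei also stood lower in the RNAi cytoplasm, at 63.74 and 70.1 CPM in sum against 94.19 CPM in the control, where 5 of 6 tested were lower by sign, 2 were called, and their median log2 fold change was -0.39. Their part in the MDM2 difference was not tested.

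MDM4, the partner of MDM2 that blocks p53 activity (chromosome 1, 204485507 to 204527248), had higher CPM in nuclear than cytoplasmic samples in both siRNA conditions. CPM is scaled within each sample, so it does not give the part of a gene's molecules that lies in each fraction. MDM4 was at 156.8, 124.9 and 138.5 CPM in control nuclei and at 144.0, 135.0 and 141.4 CPM in RNAi nuclei. In the cytoplasm it was at 52.8 CPM in the control and at 59.4 and 45.3 CPM after RNAi. In CPM the ranges of the fractions did not overlap, whereas those of the siRNA groups did. The nucleus exceeded the cytoplasm by 1.41 on the log2 scale in control cells (SE 0.18, edgeR FDR 0.0002292) and by 1.42 in RNAi cells (SE 0.14, edgeR FDR 2.145e-05). The change of this ratio was 0.01 (SE 0.22, edgeR FDR 0.9862). Neither fraction differed after RNAi, with log2 fold changes of 0.00 (SE 0.12) and -0.01 (SE 0.18).

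CDKN1A, which encodes the cell cycle inhibitor p21 (chromosome 6, 36644237 to 36655114), had higher CPM in cytoplasmic than in nuclear samples. It was at 82.1, 80.1 and 77.2 CPM in control nuclei and 84.5, 85.7 and 83.4 CPM in RNAi nuclei. The control cytoplasm held 131 CPM and the RNAi cytoplasm 184 and 160.1 CPM. In CPM both RNAi samples were thus above the control in the cytoplasm, and the 3 RNAi nuclei were narrowly above the 3 control nuclei. Per transcript length the control cytoplasm, at 66.6 TPM, lay between the RNAi samples at 80.9 and 57.9 TPM, and the nuclear groups overlapped. The cytoplasmic log2 fold change of 0.40 (SE 0.13, edgeR FDR 0.05313) passed the FDR but not the size threshold. The nuclear value was 0.08 (SE 0.09, edgeR FDR 0.6235). The nuclear level was below the cytoplasmic one by -0.71 on the log2 scale in control cells (SE 0.12, edgeR FDR 0.000812) and by -1.03 in RNAi cells (SE 0.09, edgeR FDR 1.358e-05).

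The GADD45 genes encode small proteins that bind stress kinases and growth arrest factors. GADD45B (chromosome 19, 2476120 to 2478257) was at 9.68, 13.8 and 12.1 CPM in control nuclei and at 8.90, 7.14 and 9.44 CPM in RNAi nuclei. In CPM all 3 RNAi nuclei were below the control nuclei, but the log2 fold change of -0.48 (SE 0.18, unadjusted p 0.02482, edgeR FDR 0.1715) was not called. Without control nuclear replicate 1 it was -0.61 with an edgeR FDR of 0.0791, and over all alternatives it lay between -0.61 and -0.17. Per transcript length the nuclear groups overlapped, at 6.07, 10.9 and 7.54 TPM in control and 7.69, 6.83 and 6.45 TPM in RNAi nuclei. In the cytoplasm GADD45B was at 3.22 CPM in the control and at 3.58 and 4.70 CPM after RNAi (log2 fold change 0.35, SE 0.32, edgeR FDR 0.4816). Its CPM was higher in the nucleus, by 1.87 on the log2 scale in control cells (SE 0.3, edgeR FDR 0.000682) and by 1.05 in RNAi cells (SE 0.23, edgeR FDR 0.002616). The change of that ratio, -0.82 (SE 0.37, edgeR FDR 0.1744), was not called. GADD45A (chromosome 1, 68150884 to 68154017) was found at 6.25, 7.57 and 8.49 CPM in control nuclei and 6.95, 3.61 and 6.10 CPM in RNAi nuclei, so that the groups overlapped. It was at 7.06 CPM in the control cytoplasm and at 5.53 and 5.47 CPM in the RNAi cytoplasm. Its log2 fold changes were -0.40 (SE 0.23, edgeR FDR 0.3479) in the nucleus and -0.36 (SE 0.34, edgeR FDR 0.4929) in the cytoplasm. Unlike GADD45B it was about equal in both fractions, with log2 nuclear to cytoplasmic differences of 0.07 (SE 0.31) and 0.03 (SE 0.27). The paralog GADD45G had at most 7 counts in any sample and was not tested.

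BBC3, SESN1 and TP53INP1 were low, with 37 to 194 estimated counts per sample, which limits what could be detected. The same limit holds for GADD45A (39 to 116 counts) and GADD45B (43 to 202 counts). BBC3 (chromosome 19, 47724079 to 47736023) was at 6.87, 10.4 and 6.55 CPM in control nuclei, 8.90, 8.06 and 11.5 CPM in RNAi nuclei, 11.8 CPM in control cytoplasm, and 11.6 and 17.6 CPM in RNAi cytoplasm. The siRNA groups overlapped in both fractions, with log2 fold changes of 0.25 (SE 0.23) and 0.30 (SE 0.33). The nuclear level was below the cytoplasmic one by -0.61 in RNAi cells on the log2 scale (SE 0.25, edgeR FDR 0.0567), a call that 6 alternatives lost. SESN1 (chromosome 6, 109305512 to 109416049) was at 3.43, 4.02 and 3.54 CPM in control nuclei, 3.27, 3.43 and 2.69 CPM in RNAi nuclei, 6.08 CPM in control cytoplasm, and 6.31 and 4.70 CPM in RNAi cytoplasm. Every cytoplasmic sample was thus above every nuclear one in CPM, with log2 nuclear to cytoplasmic differences of -0.73 (SE 0.25, edgeR FDR 0.03518) in control and -0.83 (SE 0.22, edgeR FDR 0.007351) in RNAi cells. With a transcript length offset these differences were 0.00 and -0.11 and neither was called, and limma on log2(TPM + 1) gave 0.07 and 0.20, where that scale put the median of all genes at 0.087 and 0.315. TP53INP1 (chromosome 8, 95938200 to 95961606) was at 7.90, 3.07 and 5.66 CPM in control nuclei, 9.87, 7.32 and 6.83 CPM in RNAi nuclei, 9.55 CPM in control cytoplasm, and 10.2 and 8.75 CPM in RNAi cytoplasm. The nuclear ranges overlapped, with a log2 fold change of 0.54 (SE 0.29, edgeR FDR 0.3266). Without control nuclear replicate 1 it was 0.90 with an edgeR FDR of 0.0828.

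**Figure D2:**
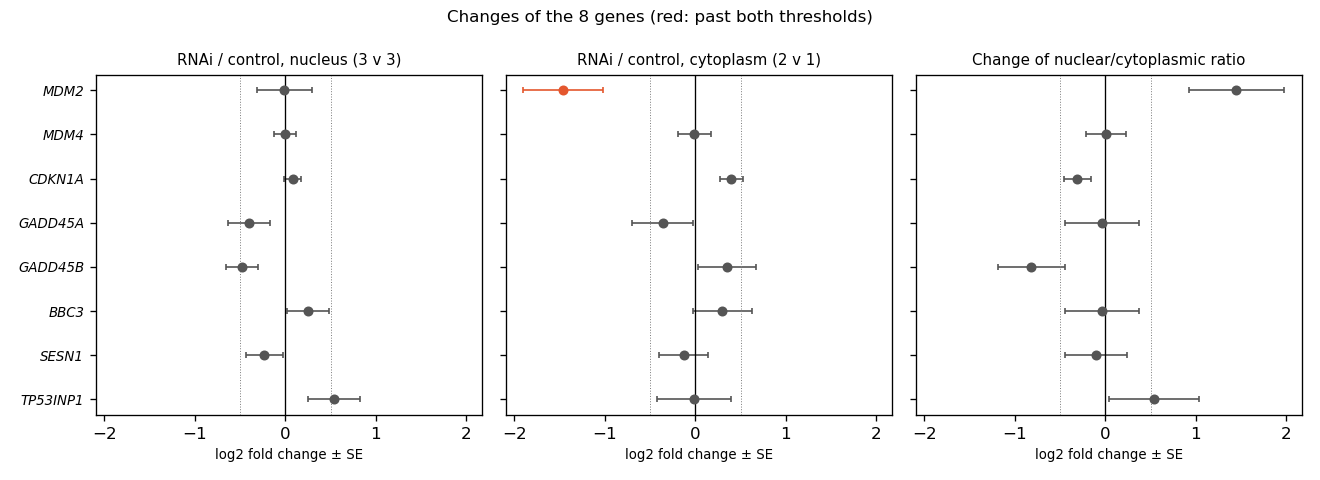
Log2 fold change with its standard error (x axis, 1 scale for all panels) of the 8 genes (y axis) after RNAi in the nucleus, in the cytoplasm, and for the nuclear/cytoplasmic ratio. Red marks values past both thresholds and dotted lines the size threshold of 0.5. MDM2 in the cytoplasm (-1.46) was the red point.

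By fraction, 6 of the 8 genes were called between nucleus and cytoplasm in RNAi cells, where 57.8% of all genes were called. MDM2, MDM4 and GADD45B were higher in the nucleus, and CDKN1A, BBC3 and SESN1 were higher in the cytoplasm. In control cells 4 were called, where 50.8% of all genes were called. MDM4 and GADD45B were higher in the nucleus there, and CDKN1A and SESN1 in the cytoplasm. MDM2 was the gene whose fitted sign differed, with the nucleus at -0.60 (SE 0.4, edgeR FDR 0.2304) against the cytoplasm in control cells and at 0.84 (SE 0.36, edgeR FDR 0.06027) in RNAi cells. Both values share the samples of the tests above and are not further evidence. Per transcript length, CDKN1A had the highest mean level in all 4 groups, at 40.7 TPM (salmon's length-scaled transcript abundance) ± 4.47 (SD, n = 3) in control nuclei and 66.6 TPM in the control cytoplasm. MDM4 came next in control nuclei (31.6 ± 4.72 TPM, SD, n = 3), followed by MDM2 (24.5 ± 1.71 TPM, SD, n = 3). In RNAi nuclei MDM4 (32.2 ± 1.01 TPM, SD, n = 3) and MDM2 (30.7 ± 1.03 TPM, SD, n = 3) were closer than the sum of their SDs. In the cytoplasm MDM2 stood above MDM4, at 39.2 against 13.6 TPM in the control. SESN1 and TP53INP1 were the lowest in every group, at 0.959 to 2.17 TPM on average, while GADD45A, GADD45B and BBC3 lay between 2.86 and 9.61 TPM.

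At the transcript level, none of the 26 tested transcripts of the 8 genes changed in the nucleus, where edgeR called 0% of 44726 transcripts. None of the 26 had an unadjusted p under 0.05, against 9.873% of all transcripts, and their lowest edgeR FDR was 0.6381. In the cytoplasm 1 of the 26 was called, MDM2-209, where 2.84% of all transcripts were called. Salmon shares reads between overlapping transcripts, and its uncertainty in doing so was not used here.

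Per transcript length (TPM), MDM2 RNA was assigned mainly to short transcripts. MDM2-209, a protein-coding transcript of 1171 nt whose exon 3 is joined to the last exon as printed above, was at 18.6 TPM in the control cytoplasm and at 5.94 and 4.63 TPM in the RNAi cytoplasm. Both RNAi samples were below the control (log2 fold change -1.64, SE 0.31, edgeR FDR 0.07006). In nuclei it was at 7.81, 6.20 and 7.18 TPM in controls and at 6.53, 8.44 and 8.87 TPM after RNAi, so that the groups overlapped. MDM2-218, a retained-intron transcript of 577 nt, gave nearly the same values, at 18.5 TPM in control cytoplasm, 6.18 and 5.56 TPM in RNAi cytoplasm, and 5.01 to 10.9 TPM in nuclei. Its cytoplasmic log2 fold change of -1.51 (SE 0.47, edgeR FDR 0.1882) was not called. MDM2-228, a retained-intron transcript of 432 nt, was listed at 0 in all 3 cytoplasmic samples. In the nucleus it was at 6.84, 6.33 and 8.08 TPM in controls and 12.5, 8.45 and 9.32 TPM after RNAi. All 3 RNAi nuclei were above the controls, but the log2 fold change of 0.53 (SE 0.4, edgeR FDR 0.7708) was not called.

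The full-length MDM2-202 (7198 nt), named after its values were seen, had no even level across replicates. Its estimated counts were 126, 302 and 0 in control nuclei, 213.6, 75.7 and 22.5 in RNAi nuclei, 107.8 in control cytoplasm, and 0 and 45.1 in RNAi cytoplasm. They were above those of MDM2-209 in control nuclear replicates 1 and 2 and RNAi nuclear replicate 1, and below them in the other samples. The gene's nuclear counts were 148 to 442, and the sample with the most MDM2-202 reads in each nuclear group was also the highest for the gene. In the cytoplasm the fall of MDM2 was shared by MDM2-202, MDM2-209 and MDM2-218, each of which was lower in both RNAi samples than in the control. The share of MDM2 TPM starting at the first exon of the p53-responsive P2 promoter was 3.60, 1.10 and 4.30% in control nuclei and 2.00, 5.30 and 2.20% in RNAi nuclei. These groups overlapped (difference 0.132 percentage points, exact permutation p 1.0, two-sided, where 3 against 3 cannot go below 0.1). In the cytoplasm the P2 share was 2.50% in the control and 2.20 and 0% after RNAi. The shares are of all 33 MDM2 transcripts, some of which, such as MDM2-228, start at neither promoter's first exon. Transcripts with the first exon of the upstream P1 promoter held 66.1% in control and 57.4% in RNAi nuclei on average. No P2 transcript was above 0.97 TPM in any sample, so the P2 share is not a measure of promoter use.

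**Figure D3:**
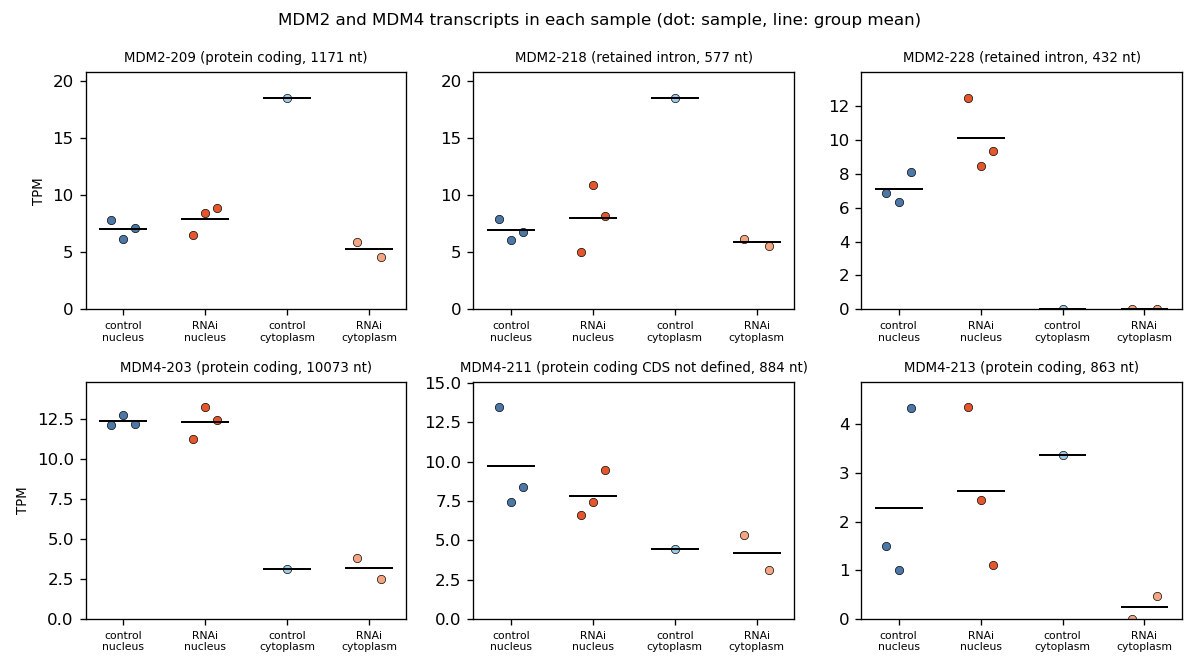
Level in TPM (y axis, from 0, a separate scale for each panel) of 3 MDM2 and 3 MDM4 transcripts in each sample, by group (x axis). Dots are samples and lines are group means. MDM2-209 and MDM2-218 were each at about 18.5 TPM in the control cytoplasm and lower in every other sample, MDM2-228 was at 0 in the cytoplasm, and MDM4-203 was above 11 TPM in nuclei and below 4 TPM in cytoplasm.

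Per transcript length, MDM4 was led by the full-length MDM4-203 (10073 nt, 11 exons) and by MDM4-211 (884 nt). MDM4-211 skips exon 6 and has no defined coding sequence in GENCODE. In control nuclei it had 143.8, 66.4 and 65.1 estimated counts, against 1997.4, 1721.1 and 1430.5 for MDM4-203. MDM4-203 was at 12.1, 12.8 and 12.2 TPM in control nuclei, 11.3, 13.3 and 12.5 TPM in RNAi nuclei, 3.15 TPM in control cytoplasm, and 3.85 and 2.49 TPM in RNAi cytoplasm. It was higher in the nucleus in both conditions, by 1.89 (SE 0.22, edgeR FDR 0.002668) and 1.61 (SE 0.16, edgeR FDR 0.0006409) on the log2 scale. MDM4-211 was at 13.4, 7.41 and 8.38 TPM in control nuclei, 6.59, 7.41 and 9.49 TPM in RNAi nuclei, 4.47 TPM in control cytoplasm, and 5.32 and 3.13 TPM in RNAi cytoplasm. Its log2 fraction differences of 1.01 (SE 0.54) and 0.58 (SE 0.41) were not called. Among MDM4 transcripts that hold either form of the junction printed above, the share of TPM skipping exon 6 was 54, 39.7 and 51.0% in control nuclei (48.2% ± 7.54, SD, n = 3). It was 45.4, 42.6 and 42.6% in RNAi nuclei (43.6% ± 1.63, SD, n = 3). In nuclei the skipping class was mostly the short MDM4-211, so these shares do not give the level of mRNA that encodes MDM4-S. The difference of -4.69 percentage points lay within the control spread (exact two-sided permutation p 0.4). The cytoplasmic shares were 59.7% in the control and 51.4 and 52.2% after RNAi. The difference was -1.83 percentage points without control nuclear replicate 1, -8.96 without control nuclear replicate 2 and -0.782 with estimated counts in place of TPM. Over protein-coding transcripts alone the sign turned, with a difference of 2.30 percentage points (exact permutation p 0.7).

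Transcripts that GENCODE classes as retained intron held a larger share in every nuclear than in any cytoplasmic sample for GADD45B, GADD45A, BBC3, SESN1 and MDM2. The MDM2 share was 55.0 to 62.3% in nuclei and 43.5 to 49.1% in cytoplasm. These shares were not computed over all genes, so the pattern cannot be called particular to these genes. For GADD45B such transcripts held 52.9, 53.3 and 70.6% of TPM in control nuclei (58.9% ± 10.1, SD, n = 3) and 35.5, 38.1 and 49.6% in RNAi nuclei (41.1% ± 7.54, SD, n = 3). In the cytoplasm they held 2.00% in the control and 4 and 0% after RNAi. All 3 RNAi nuclei were below all 3 control nuclei, a difference of -17.9 percentage points with an exact two-sided permutation p of 0.1, the smallest this design allows. The transcript behind it, GADD45B-206 (2007 nt), was at 3.00, 5.80 and 5.32 TPM in control nuclei and 2.34, 2.60 and 3.20 TPM in RNAi nuclei (log2 fold change -0.84, SE 0.47, edgeR FDR 0.6381). The protein-coding GADD45B-201 was at 2.64, 3.26 and 1.46 TPM in control nuclei, 2.60, 2.22 and 3.25 TPM in RNAi nuclei, 2.43 TPM in control cytoplasm, and 2.10 and 2.87 TPM in RNAi cytoplasm. It thus overlapped between all groups, whereas GADD45B-206 was higher in every nuclear than in any cytoplasmic sample. For GADD45A the direction was the opposite, with 7.10, 4.70 and 3.20% in control nuclei and 11, 7.50 and 13.1% in RNAi nuclei (exact permutation p 0.1). These are small shares of a gene with 39 to 111 counts per nuclear sample. BBC3 had 20.8% ± 4.44 (SD, n = 3) in control and 27.1% ± 6.96 (SD, n = 3) in RNAi nuclei (exact permutation p 0.2), and at most 2.10% in cytoplasm. SESN1 had 22.9 to 54.4% in nuclei and 0% in all 3 cytoplasmic samples, but these shares rest on few reads. Its main retained-intron transcript, SESN1-207, had 2.0 to 10.1 estimated counts per nuclear sample and did not pass the filter. Of 22 shares compared, many of them parts of the same gene, 4 reached the smallest p, and none passed after Benjamini-Hochberg adjustment (lowest adjusted exact permutation p 0.55).

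**Figure D4:**
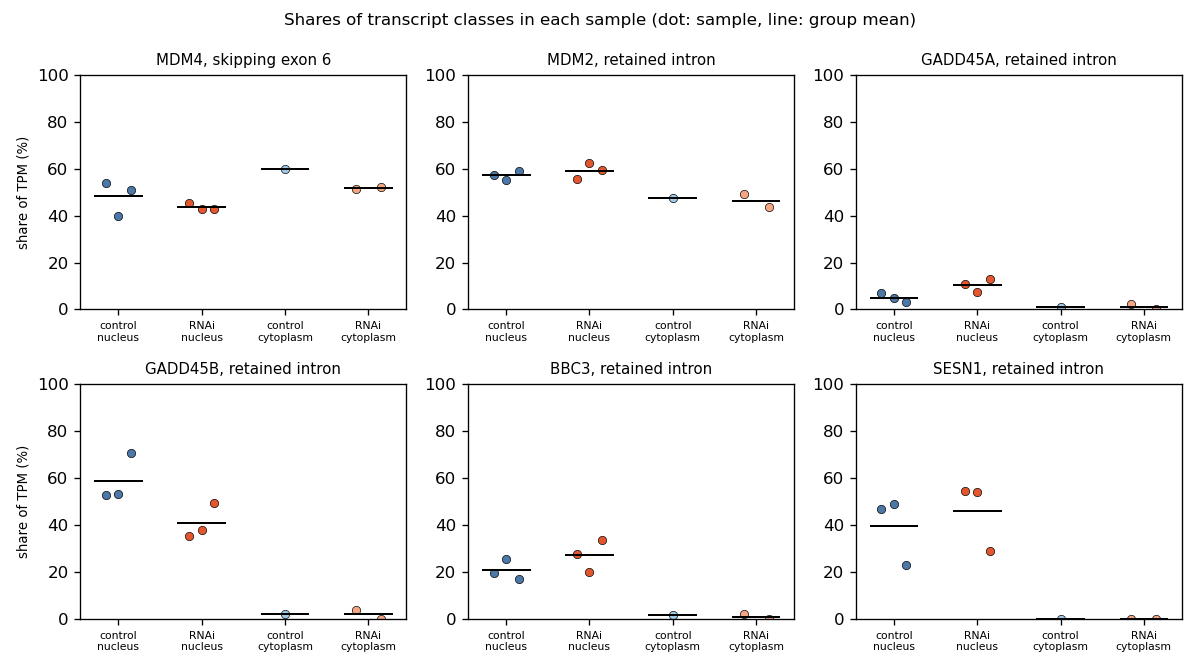
Percentage of the gene's TPM (y axis, 0 to 100%) in transcripts that skip MDM4 exon 6 (of transcripts holding either junction) or in retained-intron transcripts of 5 genes, by group (x axis). Dots are samples and lines are group means. The retained-intron share of GADD45B was 52.9 to 70.6% in control nuclei, 35.5 to 49.6% in RNAi nuclei and at most 4% in the cytoplasm.

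Among paralogs of the 8 genes, SESN3 was at 34.0 CPM in the control cytoplasm and at 12.7 and 14.4 CPM in the RNAi cytoplasm. It fell by 1.33 there on the log2 scale (SE 0.16, edgeR FDR 0.001229), with 14.8 to 17.4 CPM in all 6 nuclei. SESN2 was at 168.2, 169.8 and 164.9 CPM in control nuclei and 130.6, 141.0 and 128.4 CPM in RNAi nuclei. These ranges did not overlap, but the log2 fold change of -0.33 (SE 0.08, edgeR FDR 0.05494) was under the size threshold. SESN1, at -0.13 (SE 0.27) in the cytoplasm, and SESN2, at 0.16 (SE 0.12), were not called there. TP53INP2 differed by 0.20 (SE 0.08) in the nucleus and 0.34 (SE 0.12) in the cytoplasm, neither of which was called.

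Other genes of the pathway were taken from 2 lists. Of 39 further p53 targets 37 were tested. In the nucleus PMAIP1, which encodes the pro-apoptotic protein NOXA, was the one called, at 17.9, 17.7 and 18.9 CPM in controls and 13.3, 11.9 and 10.5 CPM after RNAi (log2 fold change -0.61, SE 0.14, edgeR FDR 0.04612). In the cytoplasm 7 targets were higher and 5 lower, beside 10.37 and 14.25% of all genes. The highest rises were TP53I3, a quinone oxidoreductase (1.49, SE 0.33), NINJ1, a membrane rupture protein (0.79, SE 0.13), and AEN, an apoptosis nuclease (0.74, SE 0.2). The deepest falls were ASCC3, a helicase subunit (-1.52, SE 0.21), RRM2B, the p53-induced ribonucleotide reductase subunit (-1.51, SE 0.28), and APAF1, the apoptosome scaffold (-1.30, SE 0.31). APAF1 was at 24.8 CPM in the control and 7.17 and 13.3 CPM in the RNAi cytoplasm, much like MDM2. The median log2 fold change of the list was 0.16 in the cytoplasm, against 0.01 for all genes, and -0.03 in the nucleus. For the nuclear/cytoplasmic ratio 2 targets were higher (ASCC3 and RRM2B) and 4 lower (FDXR, NINJ1, CSF1 and TNFRSF10B), beside 10.38 and 7.867% of all genes.

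The regulators of p53 described here were 23 genes, all of them tested. The kinase ATM, which activates p53 after DNA breaks, was at 23.9, 16.6 and 21.1 CPM in control nuclei and 33.0, 31.7 and 30.9 CPM in RNAi nuclei. It was at 16.5 CPM in control cytoplasm and at 5.37 and 3.17 CPM in RNAi cytoplasm, with no overlap between siRNAs in either fraction. Its log2 fold change was 0.63 in the nucleus (SE 0.17, edgeR FDR 0.0642) and -1.91 in the cytoplasm (SE 0.27, edgeR FDR 0.002116). The nuclear RNA KCNQ1OT1 moved the same way, by 0.79 (edgeR FDR 0.02331) and -0.78 (edgeR FDR 0.05594), and NEAT1 by 0.52 in the nucleus (edgeR FDR 0.02969). Their part in the ATM result was not tested. No other regulator was called in the nucleus. In the cytoplasm the acetyltransferase KAT5 rose by 0.55 (SE 0.13) and the kinase CSNK1A1 fell by 0.58 (SE 0.14). The ratio of ATM was 5.84-fold higher, and those of PPP1R13L and KAT5 were lower. The cytoplasmic median of the regulators was -0.12.

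**Figure D5:**
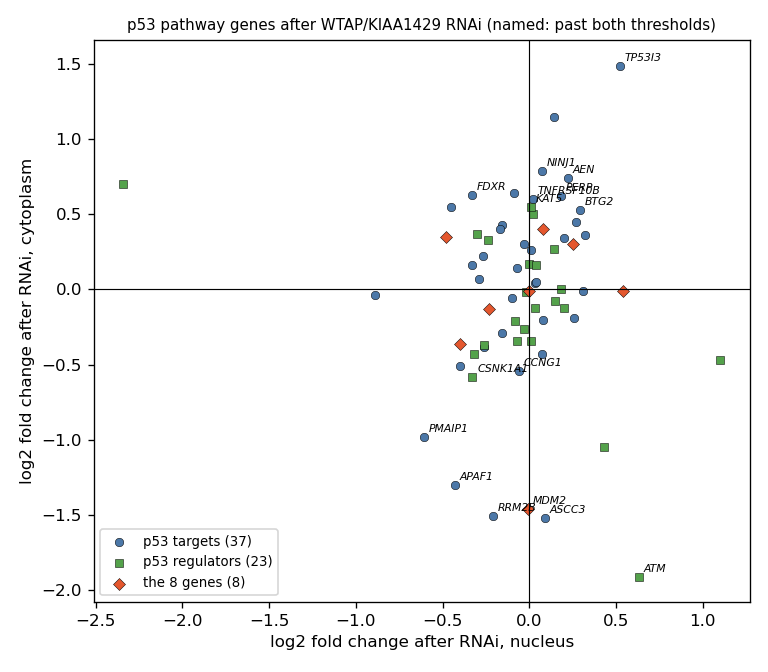
Log2 fold change after RNAi in the nucleus (x axis) and in the cytoplasm (y axis) for 37 p53 targets, 23 p53 regulators and the 8 genes, 1 point per gene, with names for those past both thresholds in either fraction. MDM2 (-0.01 and -1.46) lay beside ASCC3 and RRM2B, and ATM (0.63 and -1.91) had the lowest cytoplasmic value plotted.

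Over the 9 samples genes with levels much like MDM2 included SGCE and CERT1 (Pearson r 0.913 and 0.895 of log2(CPM + 1)), and those most like CDKN1A were ULK1, CDKN2C and WBP11 (0.996, 0.996 and 0.995). These values describe 9 samples of 2 fractions and carry no test. The word GGACT, a frequent form of the m6A consensus, was counted on the sense strand of each gene's most abundant transcript, as GENCODE gives it (the lengths equal those in the files for 8565 of 16181 genes). BBC3-201 held 7 words (5.20 per kb, above 99.5% of tested genes) and GADD45B-201 held 4 (2.92 per kb, above 95.3%). TP53INP1-201 held 7, SESN1-202 held 3, CDKN1A-201 held 2 and MDM4-203 held 5, whereas GADD45A-201 and MDM2-218 held 0. MDM2-218 is a retained-intron transcript of 577 nt, and words in the full-length MDM2-202 (7198 nt) were not counted. The 0 therefore does not describe full-length MDM2 mRNA. Over all tested genes 78.67% held at least 1, with a median of 0.94 per kb. A word match is a description of the sequence, and no methylation was measured in these samples.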

How the data were processed

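RNA from 9 samples was sequenced from libraries made with the Lexogen SENSE mRNA-Seq kit. The authors trimmed reads with cutadapt and quantified them with Salmon (version not given in the sources used here) on the Ensembl annotation of hg19. Each file deposited by the authors gives 1 estimated count and 1 TPM per transcript. Transcripts were matched without version number to GENCODE version 44 on GRCh37, the same build (183122 of 215170 transcripts, 83.07 to 88.31% of counts). Counts were added over the transcripts of a gene and then rounded to whole numbers. edgeR 4.0.16 in R 4.3.3 was fitted with TMM scaling to 4 groups, over 16181 genes with at least 10 counts in at least 3 samples, with 5 residual degrees of freedom. The control cytoplasm had 1 sample, so its spread came from the other groups. The code was tested on simulated data. Shares of a gene's TPM were compared by exact two-sided permutation tests (scipy 1.17.1).

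The thresholds follow the study's methods. The alternatives were DESeq2 1.42.0 and its size factors, library size only, no filter, a transcript length offset, limma 3.58.1 on log2(TPM + 1) and log2(TPM + 0.1), a replicate block, an FDR of 0.05 and each sample left out. A fit to nuclear samples alone was added after seeing the data. The members and lists were chosen with earlier results of these data known. Named genes were all members, paralogs, the siRNA targets, and from each list and RNAi comparison up to 3 called genes per direction with the largest change. Some genes under this rule are not reported here. Replicates differed by more than sampling noise (chi-square divided by its degrees of freedom, 5.46 or more). Depth limits precision for the low genes, and floors cover counting error only.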

Additional observations from a re-analysis of the deposited data

Results flagged for a closer look

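The response to RNAi was unequal in the nuclear and cytoplasmic fractions for 12 genes, by edgeR's interaction test at an FDR under 0.1, without the size threshold. They came from the paralogs, the siRNA targets and the list genes named in the text. None of the 8 members was among them. List genes were named because they were called, so the count does not measure how frequent such genes are. For the same comparison 18.2% of all genes passed both thresholds. The nuclear minus cytoplasmic change on the log2 scale was 2.55 for ATM (FDR 0.002159), 1.61 for ASCC3 (FDR 0.005482), 1.36 for SESN3 (FDR 0.004394), 1.30 for RRM2B (FDR 0.03835) and 0.89 for the siRNA target WTAP (FDR 0.03261). It was negative for FDXR (-0.95, FDR 0.06044), NINJ1 (-0.72, FDR 0.0149), PPP1R13L (-0.67, FDR 0.0901), CSF1 (-0.59, FDR 0.0904), TNFRSF10B (-0.58, FDR 0.06767), KAT5 (-0.54, FDR 0.04974) and SESN2 (-0.49, FDR 0.05744, under the size threshold). The cytoplasmic side of each difference rests on 1 control sample.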

How the results depend on the processing

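The number of members called after RNAi was 0 in the nucleus, with 0 to 2 over the fits that left out 1 sample. The 2 were GADD45B and TP53INP1, without control nuclear replicate 1. In the cytoplasm it was 1, with 0 to 1 when 1 sample was left out, and 0 without RNAi cytoplasm replicate 1, where 1 sample a side was assumed to vary like the other groups. The single control cytoplasmic sample could not be left out. For the nuclear/cytoplasmic ratio the count of 0 became 1 (MDM2) with library size only, DESeq2, no filter, the length offset, limma on log2(TPM + 1) or log2(TPM + 0.1) and the replicate block. It was 0 to 1 when 1 sample was left out, with 1 without control nuclear replicate 1 or 2 or RNAi nuclear replicate 3. Between fractions in control cells the count of 4 became 7 without a filter on low counts. In RNAi cells the count of 6 became 4 at an FDR of 0.05, with either limma fit or without RNAi nuclear replicate 1. It became 5 with library size only, with the length offset or without RNAi nuclear replicate 2. The MDM4 exon 6 share difference turned to 2.296 percentage points over protein-coding transcripts. The MDM2 P2 share difference turned to -0.6392 with counts in place of TPM, -0.8238 without control nuclear replicate 2 and -0.9228 without RNAi nuclear replicate 2, and it ranged from -0.9228 to 0.7696 over the fits that left out 1 sample. The SESN1 nuclear to cytoplasmic difference turned to 0.20 and 0.30 in RNAi cells with limma (pseudocounts 1 and 0.1), and in control cells to 0.07 and 0.09 with limma and 0.00 with the length offset. The cause was not tested. Library size only put the median of all genes at -0.236 in the cytoplasm and 0.233 in the ratio, and limma with pseudocounts 1 and 0.1 put it at 0.21 and 0.302 in the ratio and at 0.315 and 0.459 between fractions in RNAi cells, above the SESN1 values there. Replicate numbers were not taken to pair the samples, since not every same-number correlation of deviations passed 0.1 (0.037 to 0.197 over 7 pairs). All 7 were above 0, however, while 11 of 14 different-number pairs were below 0. The deviations of the 2 RNAi cytoplasm samples mirror each other, so their correlations are not independent. Whether same-number samples shared a batch was not tested. This choice decides the MDM2 ratio call, which was made with the replicate block and not in the main fit. Beside the ratio, the replicate block changed 1 other member count, from 4 to 5 between fractions in control cells.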
